A study of Mus musculus with 6 samples.

Results

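Read depth was described over fixed 1 Mb windows of mouse chromosomes 2 to 19 in a chromatin immunoprecipitation sequencing (ChIP-seq) experiment on Cbp. Windows started at position 4000000 of build mm9. In each, the midpoints of the deposited 200 bp read intervals were counted, with every distinct interval counted once and midpoints inside the deposited Cbp peaks left out. Of 2205 windows on these chromosomes with a midpoint, 2188 held 500 or more over both libraries and were kept. They are part of 2539 kept windows over all chromosomes from 1 to 19 and X. The material was BM-HPC, a hematopoietic progenitor and stem cell line from mouse bone marrow with the strain label C57BL/6-cast, untreated and cultured in medium that held stem cell factor (100 ng/ml) and human IL-6 (10 ng/ml). Both libraries came from these cells after crosslinking with 1% formaldehyde, 1 with a rabbit polyclonal Cbp antibody and 1 with rabbit IgG, which recognises no chosen protein. There was 1 library per antibody and the labels name no separate cultures, so every interval and test below covers counting error only, and compares the libraries rather than the antibodies. A second set in the series, 4 flow-sorted LSK samples, was not analysed here.

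Cbp (CREB-binding protein) is a transcriptional co-activator that acetylates histones and other proteins and is brought to enhancers and promoters by transcription factors. In a ChIP-seq library most reads come from chromatin carried along without specific recovery, and a non-specific IgG library samples that background by itself. Over megabases, counts of such background reads serve as a profile of read depth along each chromosome, and the ratio of a specific to a control library shows whether the profiles run in parallel. No genome sequence or gene annotation of build mm9 was used, so windows are given by position and without gene names.

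The Cbp library placed 7888895 distinct midpoints in the 2188 windows and the IgG library 5801776. A window held a median of 3596.5 Cbp midpoints (quartiles 3031.5 and 4200.5) and 2627 IgG midpoints (quartiles 2160.75 and 3131). Counts were divided by the median over all autosomal windows, 3681 in the Cbp and 2683 in the IgG library, to give a relative depth. By this measure 90% of the windows lay between 0.680 and 1.31 in the Cbp library and between 0.656 and 1.38 in the IgG library. The coefficient of variation over windows was 21.9% in Cbp and 24.5% in IgG, where counting error at the mean depth alone gives 1.67% and 1.94%. Depth therefore varied among megabase windows far beyond counting error in both libraries, and the ratio of the 95th to the 5th percentile was larger in IgG (2.11) than in Cbp (1.93).

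The libraries rose and fell together. Over the 2188 windows the relative depths had a Pearson r of 0.988 and a Spearman rho of 0.988, given as a description since windows share the genome, its alignable part and the 2 libraries. A window was called high when its relative depth was 1.3 or more in both libraries, and low when it was 0.7 or less in both. There were 129 high and 123 low windows, and the other 1936 (88.5%) were in between. Over all 2539 kept windows of the series 8.78% were high and 5.95% low. Chromosome 1 alone supplied 94 of the high windows, from 193 windows. Chromosome X supplied no high window and 26 low ones, from 158. IgG departed further from the median than Cbp at both ends: its relative depth was the larger value in 127 of the 129 high windows and the smaller value in 85 of the 123 low windows.

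**Figure D1:**
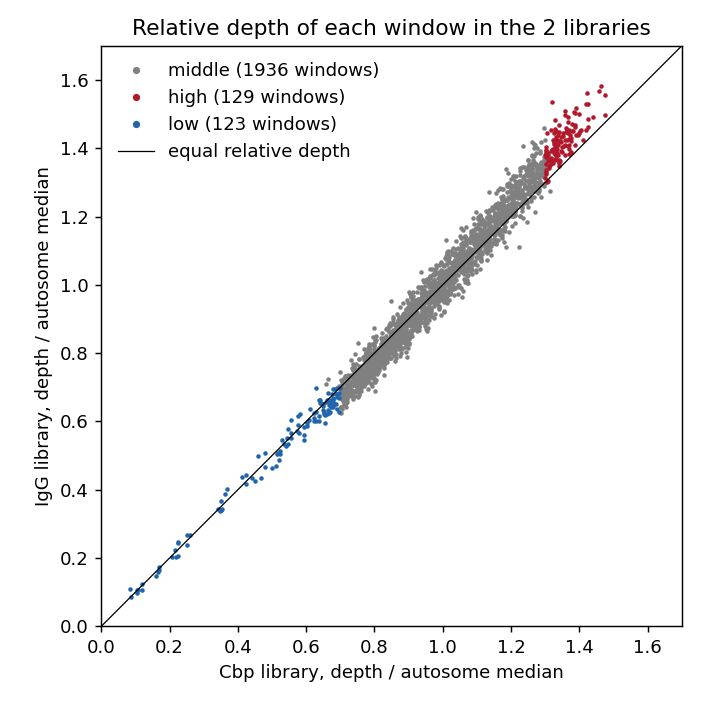
Relative depth of each of the 2188 windows (count divided by the autosome median) in the Cbp library (x axis) and the IgG library (y axis), with the line of equal relative depth; colours mark the 129 high, 123 low and 1936 other windows. Points follow the line closely, and in 127 of the 129 high windows they lie above it, towards IgG.

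By chromosome, medians of relative depth stayed in a narrow band compared with the spread of windows within a chromosome. Chromosome 11 was the highest of the 18, with a median of 1.098 in Cbp and 1.12 in IgG over 118 windows. The next highest values were 1.03 in Cbp, on chromosome 2, and 1.05 in IgG, on chromosome 13. The lowest medians were 0.913 in Cbp on chromosome 14 and 0.902 in IgG on chromosome 12, and chromosome 12 in Cbp stood at 0.916. On chromosome 11 the quartiles were 0.941 and 1.27 in Cbp, and on chromosome 14 they were 0.793 and 1.13, so the middle ranges of the highest and lowest chromosome overlapped. For comparison, chromosome 1 had medians of 1.31 and 1.303, and chromosome X had 0.799 in both libraries. Every one of the 18 chromosomes held at least 1 high and 1 low window. High windows made up 18.6% of chromosome 11 (22 windows) and 1.15% of chromosome 18 (1 window), and low windows 13.1% of chromosome 7 (18 windows) and 1.05% of chromosome 16 (1 window).

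**Figure D2:**
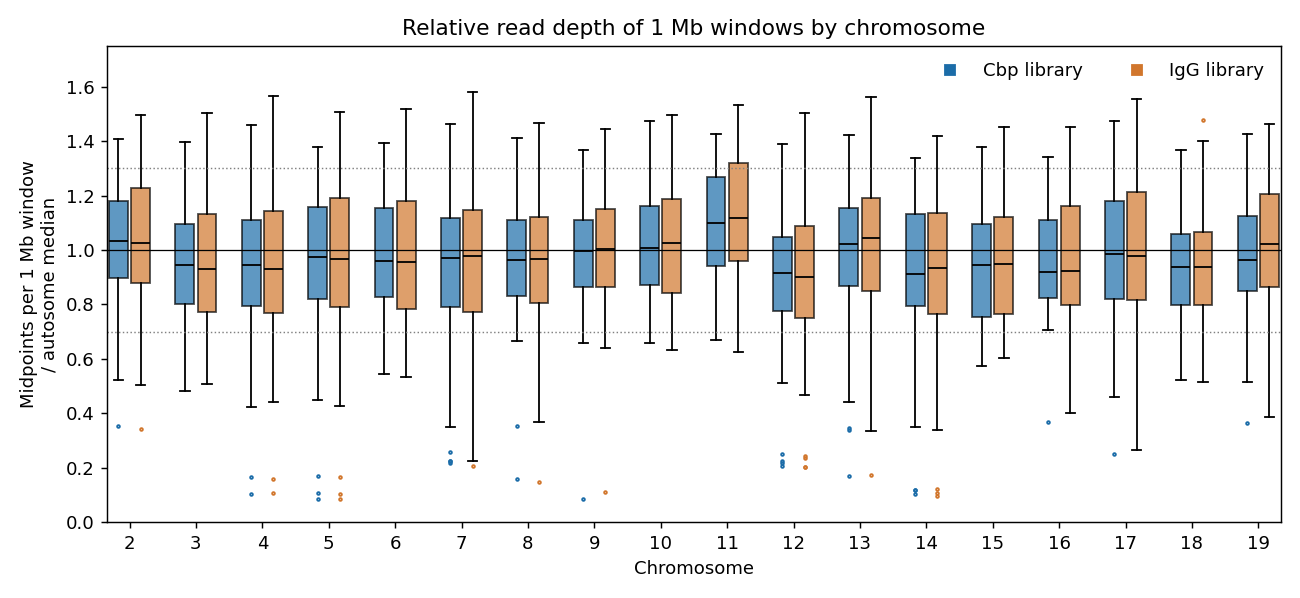
Relative depth of the 1 Mb windows of chromosomes 2 to 19 in the Cbp and IgG libraries; boxes show the median and quartiles, whiskers reach up to 1.5 times the quartile range, points lie beyond, and dotted lines mark 0.7 and 1.3. Chromosome 11 has the highest median (1.098 in Cbp and 1.12 in IgG), and the boxes of all chromosomes overlap.

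High windows were filled throughout, and 73 of the 129 had no high window beside them. In 128 of the 129, each of the 100 bins of 10 kb held a midpoint, and the median bin of a high window held 47 to 54 Cbp and 33.5 to 42 IgG midpoints. The window with the greatest mean relative depth lay on chr7:87000001-88000000, with 5390 Cbp and 4244 IgG midpoints, or 1.46 and 1.58 times the autosome median. chr17:84000001-85000000 held 5433 Cbp and 4176 IgG midpoints (1.48 and 1.56 times). chr4:134000001-135000000 held 5371 and 4204, and chr13:37000001-38000000 held 5239 and 4191. The fifth window by mean relative depth, on chr10:80000001-81000000, held 5430 and 4018 (1.48 and 1.498 times). On chromosome 1, for comparison, the upper quartile was 1.48 in Cbp and 1.51 in IgG, and the highest window stood at 1.90 and 2.03.

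Neighbouring high windows formed 98 stretches, of which 73 were single windows, 19 were pairs and 6 held 3 windows, the longest seen. The stretch of 3 with the highest mean depth lay on chr4:132000001-135000000, at a mean of 1.403 in Cbp and 1.51 in IgG. Others lay on chr7:133000001-136000000 (1.35 and 1.42) and chr7:106000001-109000000 (1.34 and 1.39), on chr5:122000001-125000000 (1.34 and 1.398), on chr16:91000001-94000000 (1.33 and 1.37) and on chr6:86000001-89000000 (1.33 and 1.39). Windows next to each other were alike: the relative depth of adjacent windows had an r of 0.49 in Cbp and 0.48 in IgG over 2162 pairs. At a distance of 5 Mb this was 0.12 and 0.11, at 10 Mb 0.099 and 0.085, and at 20 Mb 0.02 in both. Most of the likeness between windows was thus lost within 5 Mb. No unbroken high or low stretch of kept windows was longer than 4 Mb. A slower rise along whole chromosomes is described further below.

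Low windows were of several kinds, told apart by how many of their 10 kb bins held any midpoint. In 53 of the 123, all 100 bins were filled. Their relative depth lay between 0.219 and 0.6998 in Cbp and between 0.203 and 0.697 in IgG, with medians of 0.667 and 0.650, and their median bin held 6 to 27 Cbp midpoints. In 40 windows fewer than 90 bins were filled, and 13 of these were the last window of a chromosome, where reads stop before the window ends. Another 30 windows had 90 to 99 filled bins and medians of 0.558 in Cbp and 0.552 in IgG. Across all 2188 windows 1949 (89.1%) had every bin filled. Among windows with every bin filled, 3.64% were low, against 5.62% of all 2188.

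**Figure D3:**
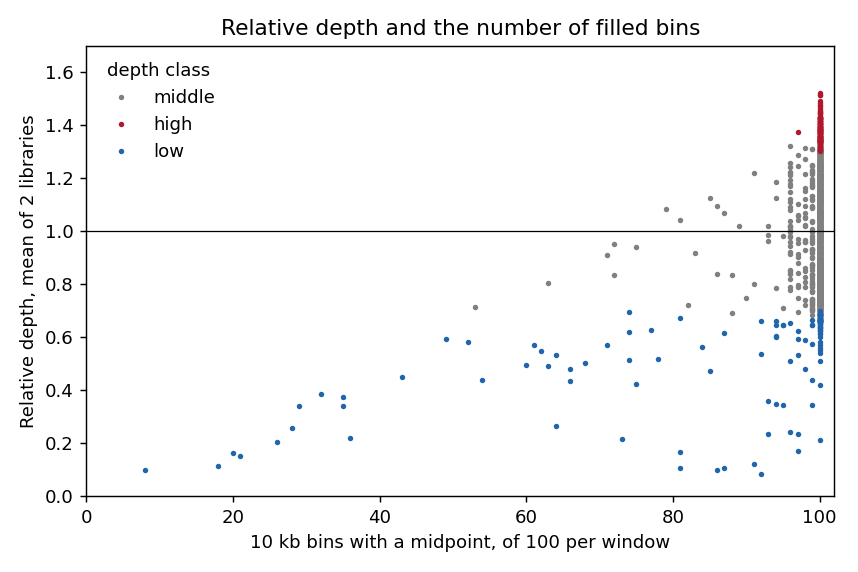
Mean relative depth of the 2 libraries (y axis) against the number of 10 kb bins that held a midpoint, of 100 per window (x axis), for the 2188 windows coloured by depth class. Low windows occur both with all 100 bins filled (53 windows) and with fewer than 90 (40 windows), while 128 of the 129 high windows have all bins filled.

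The 5 lowest kept windows show the difference between sparse and cut-off windows. On chr5:95000001-96000000 there were 318 Cbp and 228 IgG midpoints, 0.0864 and 0.0850 times the autosome median, spread over 92 bins with a median of 2.5 Cbp midpoints each. On chr14:42000001-43000000 there were 382 and 260 over 86 bins, on chr4:60000001-61000000 there were 382 and 286 over 87 bins, and on chr5:11000001-12000000 there were 390 and 282 over 81 bins. The last window of chromosome 9, chr9:124000001-125000000, was of the other kind: its 313 Cbp and 295 IgG midpoints lay in 8 bins, with a median of 37.5 Cbp and 40.5 IgG midpoints per bin, and the last interval of that chromosome ended at 124075860. In the sparse windows reads were thus present in most bins at a low level, and in the cut-off window the few filled bins were above the median bin of all windows, which held 36 Cbp and 26 IgG midpoints.

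Low windows formed 97 stretches, 78 of them single windows and 14 pairs. The 2 longest held 4 windows each. On chr12:18000001-22000000 the relative depth ran from 0.219 to 0.642 in Cbp and from 0.203 to 0.664 in IgG, with 96 to 100 bins filled. Next to it on the far side, 3 windows from 22000001 to 25000000 fell below the minimum of 500 midpoints. On chr15:21000001-25000000 all 4 windows had every bin filled and lay close together, between 0.653 and 0.696 in Cbp and between 0.628 and 0.684 in IgG. A stretch of 3 on chr18:17000001-20000000 was of the same even kind, at 0.671 to 0.679 in Cbp and 0.647 to 0.662 in IgG. The remaining stretches of 3 were lower, on chr7:10000001-13000000 (mean 0.420 in Cbp and 0.425 in IgG) and on chr14:42000001-45000000 (0.191 and 0.187). Just before the stretch on chromosome 7, the windows from 8000001 to 10000000 fell below the minimum.

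The minimum of 500 midpoints removed 17 windows on 5 chromosomes: 6 on chromosome 7, 4 on chromosome 14, 3 on chromosome 12 and 2 each on chromosomes 2 and 8. They held 23 to 480 midpoints and had 1 to 91 filled bins, with a median of 38. Just below the minimum were chr14:7000001-8000000 with 480 midpoints, chr12:24000001-25000000 with 465 and chr7:9000001-10000000 with 445. Just above it were the windows of chromosome 5 from 95000001 with 546, of chromosome 9 from 124000001 with 608 and of chromosome 14 from 42000001 with 642. Summed, the 17 windows had 2621 Cbp and 1831 IgG midpoints, a scaled ratio of 1.05 (0.991 to 1.12).

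Depth rose along the chromosomes, which in the mouse have the centromere at the start of the numbering. When the kept windows of each chromosome were divided into 5 equal runs, the median relative depth went from 0.894 in the first through 0.928, 0.971 and 1.00 to 1.07 in the last in the Cbp library. In the IgG library it went from 0.892 through 0.943, 0.980 and 1.01 to 1.08. The first run held 15 high and 48 low windows, and the last 41 and 20. Of these 20 low windows 13 were the last window of a chromosome, where reads stop before the window ends. The last run had the higher median in both libraries on 13 of the 18 chromosomes. The largest gaps in Cbp were on chromosome 4 (0.814 in the first and 1.17 in the last run) and chromosome 15 (0.725 and 1.07). Chromosomes 10, 14, 16 and 19 ran the other way in both libraries, and chromosome 2 rose in Cbp (1.096 to 1.12) but not in IgG (1.14 to 1.13). The Cbp to IgG ratio did not follow position, with medians from 1.00 to 1.01 over the 5 runs.

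**Figure D4:**
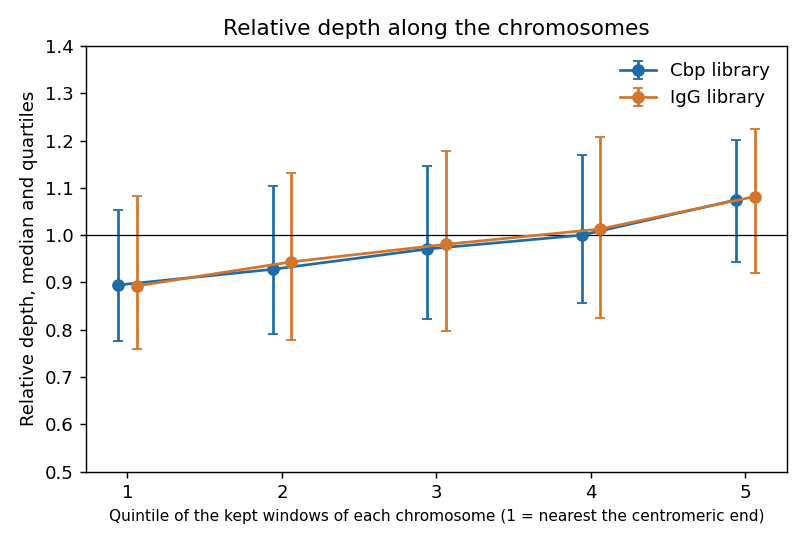
Relative depth along the chromosomes: points are medians and bars quartiles over the windows of chromosomes 2 to 19, with the windows of each chromosome divided into 5 equal runs from the centromeric end (x axis), in the Cbp and IgG libraries. Medians rise from 0.894 to 1.07 in Cbp and from 0.892 to 1.08 in IgG, while the quartiles of neighbouring runs overlap.

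The second measure was the Cbp to IgG ratio of each window, scaled by 1.36, the number of Cbp midpoints per IgG midpoint outside peaks over the whole genome. Ratios were close to 1: the median was 1.00, the quartiles were 0.974 and 1.04, and 90% of windows lay between 0.938 and 1.08. The SD of the log2 ratio was 0.065, where counting error alone gives 0.039, so the spread was 1.68 times that of counting. By the two-sided exact binomial test with Benjamini-Hochberg adjustment over all 2539 windows, 112 of the 2188 windows had more Cbp and 105 more IgG. These are shares of 5.12% and 4.8%, next to 5.16% and 4.84% over all 2539 windows of the series, most of which are these same windows. Chromosome 1 had 8.81% and 8.29% of its windows called, and chromosome X 1.27% in each direction; these differences in share were not tested. At an unadjusted p below 0.05 the counts were 312 and 291. Called differences were small, with ratios of 1.07 to 1.17 where Cbp was higher and 0.780 to 0.940 where IgG was higher. No window had 1.2-fold more Cbp (0% of the series) and 1 had 1.2-fold more IgG (0.0394% of the series). That window is the last of chromosome 9, where IgG exceeded Cbp per filled bin (ratio 0.780, 0.663 to 0.917, adjusted p = 0.0367, exact binomial test).

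The 5 lowest ratios among called windows with 2000 or more midpoints were all above the autosome median in both libraries, and 1 of the 5 was a high window. On chr11:100000001-101000000 there were 4858 Cbp and 4117 IgG midpoints, so that the scaled ratio was 0.867 (0.832 to 0.904) and the adjusted p 5.17e-08 by the exact binomial test, at 1.32 and 1.53 times the autosome median. This window also held 12 merged regions of the later runs of the peak list, more than any other window named here, whose own reads were left out. Its ratio depended on how peaks were handled. It was 0.735 with midpoints in peaks kept and 0.898 with peak flanks of 1 kb left out. In the latter setting it had the highest ratio of these 5 windows. The others ran from 0.886 (chr19:32000001-33000000) to 0.896 (chr19:29000001-30000000). Chromosome 19 supplied 2 of the 5 windows, chr19:32000001-33000000 (4550 and 3771 midpoints, ratio 0.887, 0.849 to 0.926) and chr19:29000001-30000000 (4639 and 3803, ratio 0.896, 0.859 to 0.936). On chr3:88000001-89000000 the ratio was 0.892 (0.854 to 0.933), and on chr5:108000001-109000000 it was 0.896 (0.859 to 0.935). Relative depth in these last 2 windows was 1.19 and 1.297 in Cbp and 1.34 and 1.46 in IgG. All 5 windows had every bin filled.

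The highest ratios were all below the autosome median in both libraries. On chr14:90000001-91000000 there were 2946 Cbp and 1848 IgG midpoints, so that the scaled ratio was 1.17 (1.105 to 1.24) and the adjusted p 5.64e-05 by the exact binomial test, at relative depths of 0.800 and 0.689. On chr6:139000001-140000000 there were 3292 and 2116, a ratio of 1.14 (1.08 to 1.21), at 0.894 and 0.789. chr12:61000001-62000000 followed with 2920 and 1885 (1.14, 1.07 to 1.21). chr17:77000001-78000000 held 3049 and 1974 (1.14, 1.07 to 1.202), and chr3:158000001-159000000 held 2871 and 1862 (1.13, 1.07 to 1.202). Only the window on chromosome 6 among these 5 held a region of the first run of the peak list (1 region).

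Ratio and depth moved against each other over the whole set. Windows were put into 10 depth deciles by their summed midpoints, a grouping chosen after the data were seen. The median ratio was 1.04 in the lowest decile (546 to 4626 midpoints), 1.05 in the second and 1.03 in the third. It was 1.00 in the fifth and sixth, 0.974 in the ninth and 0.957 in the highest (8177 to 9634 midpoints). In the second decile 196 of 220 windows had a ratio above 1, and in the highest 8 of 219. The summed ratio was 1.047 (1.043 to 1.051) in the second decile and 0.958 (0.955 to 0.960) in the highest, and these intervals did not overlap. Over the 2188 windows the ratio and the summed midpoints had an r of -0.55 and a rho of -0.61. Each of the 18 chromosomes had a negative r, from -0.72 on chromosome 2 to -0.29 on chromosome 9. The same counts give the ratio and the depth, and the part of this in the relation was not tested.

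**Figure D5:**
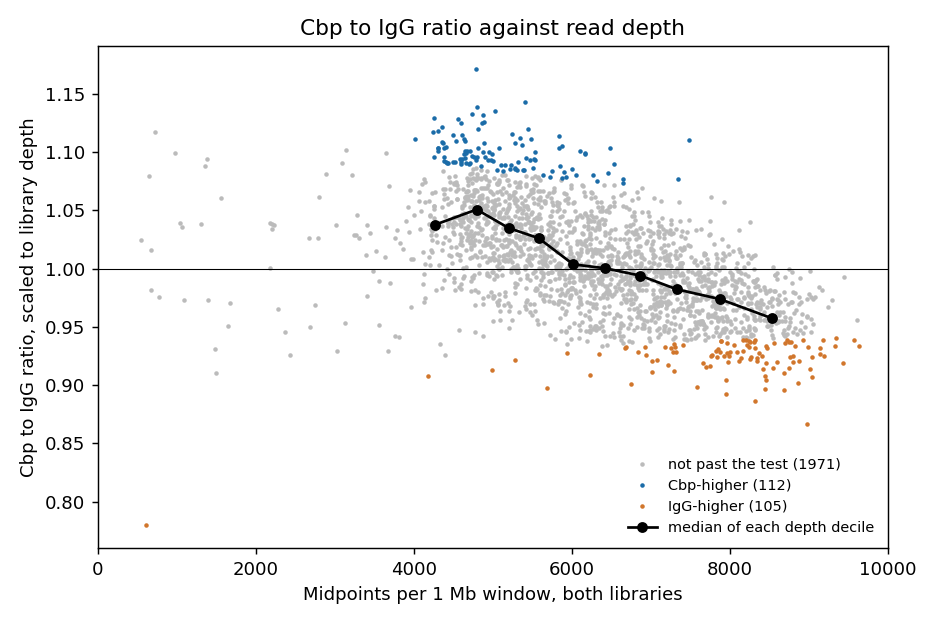
Scaled Cbp to IgG ratio of each 1 Mb window (y axis) against its midpoints over both libraries (x axis), with the 112 Cbp-higher and 105 IgG-higher windows coloured and the median of each depth decile in black. Medians fall from 1.05 in the second decile to 0.957 in the highest.

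The called windows followed this slope. Of the 112 Cbp-higher windows 105 had a mean relative depth below 1, with a median of 0.769, and 103 were in the 5 lower deciles. Of the 105 IgG-higher windows 98 had a mean relative depth above 1, with a median of 1.296, and 98 were in the 5 upper deciles. The highest decile alone held 53 IgG-higher and 0 Cbp-higher windows, and the second held 32 Cbp-higher and 1 IgG-higher. The lowest decile held 29 Cbp-higher and 2 IgG-higher windows of its 220. Of the 123 low windows, 3 were Cbp-higher and 2 IgG-higher. Over all 2539 windows of the series 5.16% were Cbp-higher and 4.84% IgG-higher. A window with fewer midpoints needs a larger difference to pass the test, so these counts depend on depth as well as on ratio. Low windows with every bin filled had a median ratio of 1.03, and those with fewer than 90 filled bins 1.01. Within deciles the SD of the log2 ratio was 1.23 to 1.45 times that of counting. After division by its decile's median, the ratio of adjacent windows had an r of 0.20, against 0.29 before.

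The decile limits of chromosomes 2 to 19 were also applied to chromosomes 1 and X. On chromosome 1 the median ratio was 1.06 in the sixth decile (22 windows) and 0.988 in the highest (101 windows), and on chromosome X it was 1.03 in the lowest (43 windows) and 0.984 in the sixth (15 windows). Chromosome 1 had windows in 9 deciles: its median lay above that of chromosomes 2 to 19 in 7 of them, and below it in the lowest and in the third, which held 3 of its windows. Chromosome X had windows in 8 deciles and lay below chromosomes 2 to 19 in 8 of 8. These differences were not tested.

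Chromosome 19 stood lowest in the ratio. Its 58 windows had a median ratio of 0.967, and 47 of them were below 1. Summed over the chromosome, 208894 Cbp and 158995 IgG midpoints gave a ratio of 0.966 (0.959 to 0.972), and the other 17 chromosomes lay between 0.983 and 1.01. Of its 58 windows 9 were IgG-higher and 0 were Cbp-higher, next to 4.84% and 5.16% of all 2539 windows of the series. Its median relative depth was 0.965 in Cbp and 1.02 in IgG. Relative to the median ratio of their own depth decile, 48 of its 58 windows were lower (median 0.964 of it). Chromosome 11 was next lowest, with a summed ratio of 0.983 (0.979 to 0.988), and against its deciles its median was 0.997. The part of depth in either ratio was not tested. Chromosome 18 had a summed ratio of 0.993 (0.987 to 0.998), and 59 of its 87 windows were below their decile's median. The highest summed ratios were 1.009 on chromosome 3 (1.005 to 1.013), chromosome 8 (1.004 to 1.014) and chromosome 5 (1.004 to 1.013). In all, 4 of the 18 chromosomes had an interval below 1 and 3 above it.

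Peak regions were counted per window as a further readout, with overlapping rows of the first run of the peak list merged. Since that list comes with the Cbp sample itself, these counts describe the list and are not an independent measurement. The 2188 windows held 1775 first-run regions, 0.811 per window. High windows held 2.83 per window and low windows 0.293. Among low windows the value was 0.0943 with every bin filled, 0.2 with 90 to 99 filled bins and 0.625 with fewer than 90. The highest depth decile held 543 regions, against 19 in the second and 42 in the lowest. Windows with more regions had lower ratios outside the peaks: the median was 1.02 in 1230 windows without a region, 0.995 in 524 windows with 1 region and 0.969 in 97 windows with 4 or more. Among windows of like depth the sets were closer together: relative to the median of their decile the same 3 sets stood at 1.00, 1.00 and 0.997. Over all windows the number of regions had an r of 0.51 with the summed midpoints, -0.36 with the ratio and -0.04 with the ratio relative to its decile.

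Duplicates, the repeats of an identical interval that were dropped, made up a median of 1.48% of a window's Cbp intervals (quartiles 1.33 and 1.62) and 11.4% of its IgG intervals (quartiles 10.8 and 12.1). Both shares were a little larger in deeper windows, from 1.41% in the second to 1.54% in the highest decile in Cbp and from 10.7% to 12.2% in IgG. In the Cbp library 3 windows had more than 10%. On chr2:98000001-99000000, 135348 Cbp and 159596 IgG intervals outside the peak rows came down to 3473 and 2722 distinct midpoints, and the relative depth was 0.943 and 1.01. On chr9:35000001-36000000, 17.1% of Cbp and 33.3% of IgG intervals were duplicates, and the ratio of distinct midpoints was 0.991 (0.939 to 1.05). On chr17:39000001-40000000 the shares were alike, 19.97% and 19.2%, and this window went against the slope of ratio on depth. It held 4501 Cbp and 2979 IgG distinct midpoints, 1.22 and 1.11 times the autosome median, with a ratio of 1.11 (1.06 to 1.16).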

How the data were processed

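The Cbp and IgG libraries were deposited as lists of read intervals (chromosome, start and end) on build mm9, per the submitters' processing notes, and the Cbp sample also with a list of 4012 peak positions. Which aligner, extension step and peak caller were used is not given in the sources used here. From the deposited positions, midpoints of distinct nuclear intervals outside peak rows were counted in 1 Mb windows from position 4000000 (9341485 Cbp and 6864813 IgG in the genome). Ratios were scaled by these totals and given exact 95% intervals. Each window's split between the libraries was tested by a two-sided exact conditional binomial test, Benjamini-Hochberg adjusted over chromosomes 1 to 19 and X with a threshold of 0.05. The code was tested on simulated counts that held counting error only. That simulation does not cover the larger spread of these data (1.68 times that of counting). Named windows were the 5 at each end of depth, the 5 at each end of ratio among called windows with 2000 or more midpoints, the longest stretches of 3 or more high or low windows (11 rather than the 10 set by the rule, as the shortest tied), and those next to the minimum of 500. The windows, tests and rules were chosen with earlier results of these data known. Alternatives covered duplicates, peak rows and flanks, window size and start, minimum count, 10 kb bins, scaling and threshold. Tests ran in scipy 1.17.1 and numpy 2.4.6, tables in pandas 2.3.3 and plots in matplotlib 3.10.9, under Python 3.11.15. The 4 LSK samples were not analysed here.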

Additional observations from a re-analysis of the deposited data

How the results depend on the processing

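Under the alternatives tried that give these values, the median ratio stayed above 1 in the lowest depth decile (1.03 to 1.05) and below 1 in the highest (0.951 to 0.965), chromosome 11 stayed at 1.07 to 1.14 times the autosome median, and the median ratio of chromosome 19 was 0.964 to 0.976. The 10 windows named for their ratio were past the exact binomial test in the same direction in each of 60 combinations of window and setting. These windows were chosen from the same data as the most extreme past that test, so this count is no separate support. The settings were duplicates, peak rows and flanks, scaling and threshold, and not window size or start. Named depths moved by more than counting error in 9 of 40 combinations. Under the median filled 10 kb bin, the last window of chromosome 9 went from 0.0975 times the autosome median to 1.26 times, and so was no longer low. By the same measure chr5:11000001-12000000 went from 0.106 to 0.0455 and chr14:42000001-43000000 from 0.100 to 0.0641. The 500 kb and 2 Mb windows also had another minimum count, 250 and 1000. Cbp-higher windows (5.12% of windows) and IgG-higher windows (4.8%) became 0.940% and 1.77% with 500 kb windows, 11.6% and 9.65% with 2 Mb windows, and 1.05% and 1.51% at an adjusted p of 0.01. With duplicates kept, Cbp-higher windows were 12.2%, and the cause was not tested. High windows (5.90%) were 9.91% with 500 kb and 3.18% with 2 Mb windows, and low windows (5.62%) were 3.64% among windows with every bin filled. The 1.2-fold rule gave 0 Cbp-higher windows and 1 IgG-higher window. These counts were 1 and 2 with duplicates kept, 7 and 2 with 500 kb windows, 1 and 0 with windows from 4500000, and 3 and 2 without a minimum count. The IgG-higher count was 2 with midpoints in peaks kept, and 0 with 2 Mb windows, a minimum of 2000, the last windows left out or every bin filled. The spread of the log2 ratio over that of counting (1.68) was 1.91 with duplicates kept, 1.47 and 1.94 with 500 kb and 2 Mb windows, and 1.52 without a minimum count. The r between libraries (0.988) was 0.998 with duplicates kept, 0.983 and 0.991 with 500 kb and 2 Mb windows, and 0.977 for the median 10 kb bin. The value with duplicates kept includes chr2:98000001-99000000, which then held 135348 Cbp and 159596 IgG intervals. A single window that far out can raise r, so 0.998 is not read as closer agreement. Its part in that r was not tested. The median ratio of the lowest decile (1.04) was 1.05 with duplicates kept, with 500 kb windows and with every bin filled, and that of the highest (0.957) was 0.951 with 500 kb windows, 0.965 with 2 Mb windows and 0.954 when scaled by the median window ratio. Leaving out the last windows and using filled windows only were chosen after the data were seen. No paired analysis was possible because only 1 library per antibody was analysed and their labels carry no replicate numbers.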

Other observations

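The stretch before the first window, from the first reads of each chromosome to position 4000000, was outside the windows described above. Its length is not given here, so the values below are totals and not depths per Mb. On chromosome 11 it held 9956 Cbp and 7553 IgG distinct midpoints outside peaks, 2.70 and 2.82 times the autosome median of a 1 Mb window. These totals are above the counts of every kept 1 Mb window of chromosomes 2 to 19. On chromosome 14 it held 68 and 51, or 0.0185 and 0.0190 times. Totals on the other 16 chromosomes lay between 0.680 and 1.19 times that median in Cbp and between 0.686 and 1.24 times in IgG. The Cbp to IgG ratio had an exact 95% interval below 1 on 7 of the 18 chromosomes and above 1 on 0, and the lowest ratios were 0.908 (0.859 to 0.960) on chromosome 13 and 0.911 (0.869 to 0.956) on chromosome 5. On chromosome 9 duplicates made up 17.5% of the Cbp and 32.3% of the IgG intervals of this stretch.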
